A study of Mus musculus with 4 samples.

Results

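The platelet-derived growth factor (PDGF) family was examined in bulk RNA-Seq of nasal process (NP) tissues from E11.5 mouse embryos. Its members were taken by gene symbol and were the ligand genes *Pdgfa*, *Pdgfb*, *Pdgfc* and *Pdgfd*, the receptor genes *Pdgfra* and *Pdgfrb*, and the receptor-like gene *Pdgfrl*. Of these 7 genes, 6 have a row among the 13577 genes of the expression table, and *Pdgfd* was not analysed here. The study asked how enhanced BMP signaling in the neural crest of the head acts on the formation of the midface, and *Pdgfra* was among the genes it followed. There were 2 libraries titled control and 2 titled mutant. According to the study's methods, control embryos were ca-*Acvr1[A11]*+/+;*P0-Cre* and mutants, called ca-*Acvr1(A11)*, were ca-*Acvr1[A11]*fl/+;*P0-Cre*, so that both groups carried *P0-Cre*, a Cre transgene active in the neural crest. The mutants also carried a Cre-dependent transgene, in the single line A11, for a constitutively active form of the BMP type I receptor ACVR1. Cells of the NP tissue that do not come from the neural crest are not a target of this Cre but are part of the RNA. The genotype entries of the sample labels assign the transgene the other way round from the titles. The titles were used here. If the genotype entries hold instead, every direction below turns round. *Acvr1* itself was at 21.5 and 23.1 CPM in controls, against 24.1 and 12.6 CPM in mutants, values that overlap. Reads were taken near the 3′ end, and whether transcripts of the transgene count toward *Acvr1* there is not known. These values therefore do not settle which labels hold.

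PDGF ligands are secreted dimers that bind a pair of receptor tyrosine kinases on the surface of nearby cells, and ligand binding brings the receptors together and starts signaling through PI3K, PLCγ and the RAS/MAPK cascade. PDGF-A and PDGF-C act on PDGFRα, while PDGF-B binds PDGFRα and PDGFRβ. In the embryonic face, the ligands are made largely by epithelium and PDGFRα by the mesenchyme beneath it, and loss of PDGFRα in mice causes midline facial clefts. PDGFRβ is best known from pericytes and vascular smooth muscle cells, and is also present in facial mesenchyme.

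The study examined the *Pdgfra* promoter by chromatin immunoprecipitation, so promoter sequences are shown for *Pdgfra*, which was lower in ca-*Acvr1(A11)* libraries, for *Pdgfa*, which was higher, and for *Pdgfc*, the next most abundant ligand gene. The RefSeq table of promoters (GRCm38.p6) holds windows of 300 bases, 250 before and 50 after a start site, for 4 of the 7 members. Each sequence is read 5′ to 3′ on the gene's strand, from the start of its window to the last base before the RefSeq start and before any base that GENCODE gives as an exon of the gene. It covers chr5:75152001-75152250 on the plus strand for *Pdgfra*, chr5:138995038-138995194 on the minus strand for *Pdgfa*, and chr3:81036166-81036415 on the plus strand for *Pdgfc*. Capitals mark matches on either strand to GTCTG, which reads CAGAC on the other strand, to GGCGCC, which is its own reverse complement, and to GGGCGG, which reads CCGCCC on the other strand.
Pdgfra: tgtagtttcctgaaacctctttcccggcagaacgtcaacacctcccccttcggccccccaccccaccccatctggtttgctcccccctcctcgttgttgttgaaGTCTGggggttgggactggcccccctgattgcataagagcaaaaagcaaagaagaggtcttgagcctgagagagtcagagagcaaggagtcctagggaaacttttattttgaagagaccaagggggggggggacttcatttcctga
Pdgfa: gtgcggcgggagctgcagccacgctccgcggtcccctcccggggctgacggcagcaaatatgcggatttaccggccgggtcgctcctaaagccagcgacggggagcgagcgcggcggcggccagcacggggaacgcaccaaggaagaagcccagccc
Pdgfc: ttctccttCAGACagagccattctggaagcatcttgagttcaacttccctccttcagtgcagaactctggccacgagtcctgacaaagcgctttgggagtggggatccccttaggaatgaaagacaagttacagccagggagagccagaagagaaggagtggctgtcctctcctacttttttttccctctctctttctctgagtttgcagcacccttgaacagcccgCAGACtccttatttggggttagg
GTCTG and GGCGCC are motifs that Smad proteins can bind, and GGGCGG is the GC box of Sp factors. A match does not show binding. In control NP cells the study reported phosphorylated Smad proteins at the *Pdgfra* promoter to be near background. The windows were not compared with the region the study amplified. Over the whole 300 bases, the *Pdgfra* window had 1 match to GTCTG and 0 to GGCGCC and GGGCGG. *Pdgfa* has 2 windows in the table. The one shown, at the more upstream RefSeq start, had 2 matches to GGGCGG, both after the bases shown, and 0 to GTCTG and GGCGCC. It lies inside the *Pdgfa* gene of GENCODE, whose 5′ end is at 138997370, and overlaps the antisense gene *6330403L08Rik* (138995056 to 139000577). The *Pdgfc* window had 2 matches to GTCTG and 1 to GGCGCC, the last after the bases shown. Of all 32851 windows in the table, 49.6% hold GTCTG, 11.9% GGCGCC and 35.7% GGGCGG. Of the windows shown, *Pdgfra* had 51.0% G and C and 5 CpG sites, *Pdgfc* 55% and 8, and *Pdgfa* 73.3% and 37. The other *Pdgfa* window had 67% and 24. Medians over all windows were 52.7% and 7.

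Libraries were made with the QuantSeq 3′ kit, which collects reads near the poly(A) end of a transcript, so that reads do not grow in number with transcript length and values in CPM, the usual scaling of a gene’s reads to an equal library total, can be set side by side for different genes. In the GENCODE annotation, 0 other genes have an exon within the last exon of any of the 7 members. The libraries held 1956831 and 2252586 reads (control) and 2408827 and 2137027 reads (ca-*Acvr1(A11)*), and 1 read was worth 0.415 to 0.511 CPM. Nothing in the labels says whether the libraries of a group came from separate embryos or pools, so the spread between them may be technical. For a single value, permuting 2 libraries against 2 reaches an exact p of 0.33 at best, and genes were therefore tested with limma, fitted on log2(CPM + 1) across the 12462 genes with a mean above 1 CPM. In limma the variance of each gene is drawn toward a trend over all genes. With so few libraries, its p-values and intervals rest largely on the spread of other genes.

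Before the values of the family were used, each was compared with whole multiples of 1 read. Of the 24 values of the 6 genes, 20 were whole numbers of reads, the farthest from one by 0.00012 reads. The other 4 were the *Pdgfra* and *Pdgfrb* values of both ca-*Acvr1(A11)* libraries. For *Pdgfra*, 13.2 and 17.9 CPM correspond to 31.8 and 38.3 reads, and both became whole, at 80 and 81 reads, when 20 CPM was added. For *Pdgfrb*, 18.6 and 23.7 CPM correspond to 44.9 and 50.6 reads, and both became whole, at 69 and 72 reads, when 10 CPM was added. The control values of the same genes were whole as deposited. In the table as a whole, 43 of 54308 values, in 22 genes, were not whole reads. Counting only whole-number shifts under 10 CPM or in multiples of 10 CPM, 42 of them had such a match within 500 CPM. Why these values differ was not tested. Both receptor genes are therefore given as deposited and with these shifted whole-read values, which are not roundings but the deposited values plus 20 or 10 CPM.

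**Figure D1:**
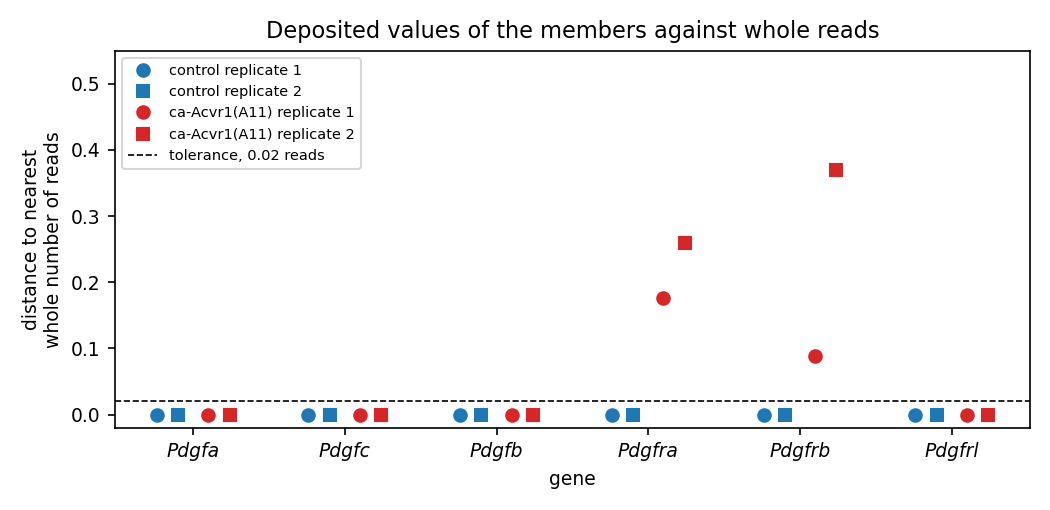
Distance of each deposited value from the nearest whole number of reads (y axis, reads) for the 6 listed members (x axis), with control libraries in blue, ca-*Acvr1(A11)* libraries in red, circles for replicate 1 and squares for replicate 2. The 20 whole values lie at 0, under the dashed tolerance of 0.02 reads, and the 4 ca-*Acvr1(A11)* values of *Pdgfra* and *Pdgfrb* lie between 0.0883 and 0.370 reads.

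In ca-*Acvr1(A11)* NP tissues the main ligand gene, *Pdgfa*, rose and the receptor genes *Pdgfra* and *Pdgfrb* fell, while *Pdgfb*, *Pdgfc* and *Pdgfrl* did not pass the test. All 6 listed members had a mean above 1 CPM and were tested. At an adjusted p under 0.05 from limma, 1 of the 6 was called higher, beside 0.305% of all genes tested (38 of 12462), and 2 were called lower, beside 0.594% (74 of 12462). In either direction this was 3 of 6, beside 0.899% of all genes as deposited and 0.818% with the shifted whole-read values, with which 3 of the 6 were called as well.

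*Pdgfa* (Entrez 18590), which encodes the A chain and lies on chromosome 5 of GRCm38 from 138976014 to 138997370, was the most abundant ligand gene. It was at 94.5 and 75.9 CPM in control libraries (185 and 171 reads) and at 157 and 152 CPM in ca-*Acvr1(A11)* libraries (378 and 324 reads). The groups did not overlap, and both ca-*Acvr1(A11)* libraries stood above the higher control library. Means were 85.2 ± 13.2 CPM in controls and 154 ± 3.76 CPM in mutants (SD, n = 2 each), which limma fitted as 0.86 on the log2 scale (standard error 0.16, 95% interval 0.54 to 1.18, adjusted p = 0.00321 from limma), or 1.81-fold. It was called under each alternative that kept 2 libraries a group, and its log2 fold change was 0.70 to 1.01 over all 19 alternatives run. All its values were whole reads, so the limma and edgeR alternatives on shifted whole-read values nearly repeat the others for this gene. The antisense gene *6330403L08Rik* overlaps the 5′ part of *Pdgfa* and does not reach its last exon.

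*Pdgfc* (Entrez 54635, chromosome 3 from 81036416 to 81214040) encodes a further ligand of PDGFRα that is secreted in latent form and activated by proteases. It was at 55.7 and 59.0 CPM in controls, against 71.4 and 80.5 CPM in mutants. Both ca-*Acvr1(A11)* libraries were above both control libraries, but the log2 fold change of 0.40 did not pass the test (standard error 0.17, 95% interval 0.05 to 0.75, adjusted p = 0.437 from limma). *Pdgfb* (Entrez 18591, chromosome 15 from 79995874 to 80014977), the ligand that endothelium releases to recruit mural cells, was at 6.64 and 8.88 CPM in controls, against 7.47 and 7.02 CPM in mutants. These values rest on 13 to 20 reads each, and the groups overlap (log2 fold change −0.08, standard error 0.35, 95% interval −0.79 to 0.64, adjusted p = 0.974 from limma). The interval spans changes of more than 1.5-fold in either direction, so a moderate change of *Pdgfb* was not detectable in these libraries. In each of the 4 libraries *Pdgfa* was above *Pdgfc* and *Pdgfc* above *Pdgfb*. *Pdgfa* made up 60.3% and 52.8% of the summed ligand CPM in control and 66.5% and 63.4% in ca-*Acvr1(A11)* libraries.

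*Pdgfra* (Entrez 18595, chromosome 5 from 75152292 to 75198215), which encodes PDGFRα, was the most abundant member in control tissue on average, although in control replicate 1 *Pdgfa* stood above it. It was at 85.3 and 114 CPM in control libraries (167 and 256 reads). In ca-*Acvr1(A11)* libraries the deposited values were 13.2 and 17.9 CPM, and the shifted whole-read values 33.2 and 37.9 CPM. Either way the groups were far apart, with the lowest control value more than 2-fold above the highest ca-*Acvr1(A11)* value. As deposited, means were 99.5 ± 20.0 CPM in controls and 15.6 ± 3.32 CPM in mutants (SD, n = 2 each), a fitted log2 difference of −2.60 (standard error 0.21, 95% interval −3.04 to −2.17, adjusted p = 6.81e-09 from limma), or 6.07-fold lower. With the shifted whole-read values the ca-*Acvr1(A11)* mean was 35.6 ± 3.32 CPM (SD, n = 2), and limma fitted −1.45 (standard error 0.18, 95% interval −1.83 to −1.07, adjusted p = 4.43e-05 from limma), or 2.73-fold lower. The intervals of the 2 estimates do not overlap, so the size of the change depends on which values are used. Among the 12462 genes tested, *Pdgfra* ranked 2 from the most negative fold change as deposited and 22 with the whole-read values. The call held under each alternative that kept 2 libraries a group, and the direction under all 19 alternatives run.

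*Pdgfrb* (Entrez 18596), which encodes PDGFRβ, lies on chromosome 18 of GRCm38 from 61045150 to 61085061. It was at 53.7 and 75.5 CPM in control libraries (105 and 170 reads). In ca-*Acvr1(A11)* libraries the deposited values were 18.6 and 23.7 CPM, and the shifted whole-read values 28.6 and 33.7 CPM. Both sets lie below both control libraries. As deposited, the log2 fold change was −1.55 (standard error 0.22, 95% interval −2.0 to −1.1, adjusted p = 0.000106 from limma), or 2.94-fold lower. With the shifted whole-read values it was −1.01 (standard error 0.20, 95% interval −1.43 to −0.60, adjusted p = 0.00889 from limma), or 2.02-fold lower. On the whole-read values the call was lost in DESeq2 (−1.08 on the log2 scale, adjusted p = 0.0938). It held under the other alternatives that kept 2 libraries a group. Without control replicate 2 the change on whole-read values was weaker, at −0.77 on the log2 scale.

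*Pdgfrl* (Entrez 68797, chromosome 8 from 40926212 to 40990785) encodes a secreted protein that resembles the ligand-binding part of the receptors and has no kinase. It was near the limit of detection, at 1.02 and 3.11 CPM in controls, against 3.32 and 0.936 CPM in mutants, or 2 and 7 against 8 and 2 reads. The groups overlap fully (log2 fold change 0.01, standard error 0.53, 95% interval −1.07 to 1.08, adjusted p = 0.999 from limma), and the interval takes in a 2-fold change in either direction.

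By mean CPM, the order in controls was *Pdgfra*, *Pdgfa*, *Pdgfrb*, *Pdgfc*, *Pdgfb* and *Pdgfrl*. Their ranges overlap for *Pdgfra* beside *Pdgfa* and for *Pdgfrb* beside *Pdgfc*, so these neighbours did not differ beyond their spread, while *Pdgfa* and *Pdgfrb* were separated only narrowly, at 75.9 CPM for the lower and 75.5 CPM for the higher library. *Pdgfb* and *Pdgfrl* lay well below the rest. In mutants *Pdgfa* and *Pdgfc* came first and did not overlap with any other member. The ranges of *Pdgfra* and *Pdgfrb* followed, which overlapped with whole reads and, as deposited, did not reach each other at 17.9 and 18.6 CPM.

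**Figure D2:**
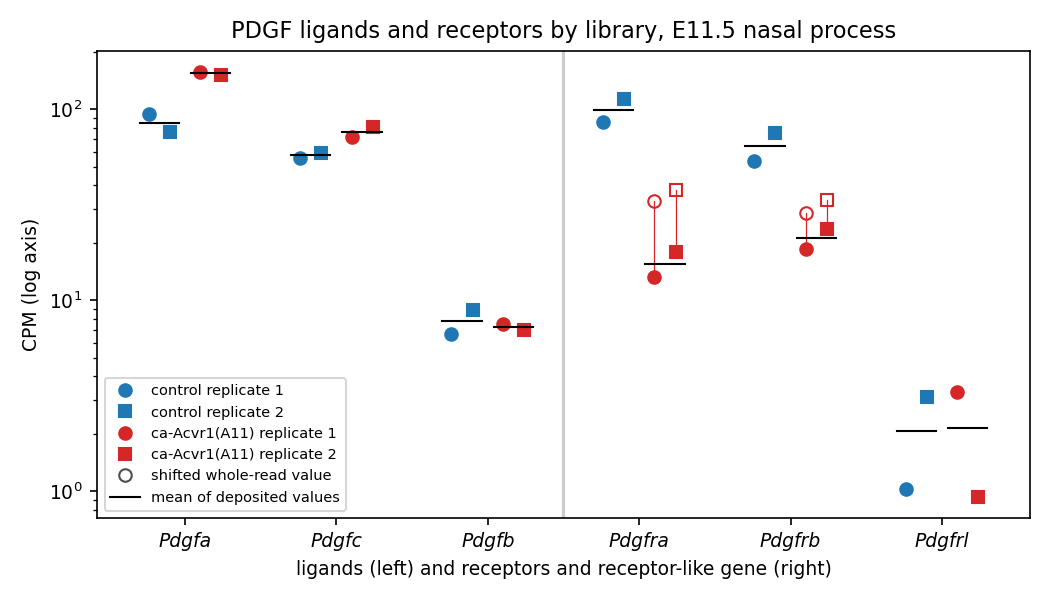
CPM (y axis, log scale) of the 6 listed members (x axis, ligand genes left of the grey line) in each library, blue for control and red for ca-*Acvr1(A11)*, circles for replicate 1 and squares for replicate 2. Filled symbols are deposited values, open symbols joined to them the shifted whole-read values, and black bars group means of the deposited values. *Pdgfa* at 152 to 157 CPM stands above both controls, and *Pdgfra* at 13.2 to 17.9 CPM, or 33.2 to 37.9 CPM with whole reads, below both.

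Ratios between members were taken within each library, since they do not depend on how libraries are scaled. In control libraries ligand and receptor genes were near balance, with 1.13 and 0.761 times as much summed ligand CPM (*Pdgfa*, *Pdgfb* and *Pdgfc*) as summed receptor CPM (*Pdgfra* and *Pdgfrb*). In ca-*Acvr1(A11)* libraries the ligand sum was 7.40 and 5.75 times the receptor sum as deposited, and 3.81 and 3.34 times with the shifted whole-read values. The ca-*Acvr1(A11)* libraries thus lay above the control libraries on either set of values, by 2.82 on the log2 scale as deposited and 1.95 with whole reads (exact permutation test, two-sided, p = 0.33 in both, the smallest these libraries allow).

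For the ligand and receptor pair of *Pdgfa* and *Pdgfra*, the ratio was 1.11 and 0.668 in control and 11.9 and 8.47 in ca-*Acvr1(A11)* libraries as deposited, a log2 difference of 3.54. With the shifted whole-read values the ca-*Acvr1(A11)* ratios were 4.7 and 4.0, a log2 difference of 2.34 (exact permutation p = 0.33 for each). *Pdgfc*, which was below *Pdgfra* in both control libraries (ratios of 0.653 and 0.520), was above it in both ca-*Acvr1(A11)* libraries, with ratios of 5.40 and 4.50 as deposited and 2.15 and 2.12 with whole reads. Relative to *Pdgfa*, *Pdgfc* went from 0.589 and 0.778 in control to 0.455 and 0.531 in ca-*Acvr1(A11)* libraries, a log2 difference of −0.46 (exact permutation p = 0.33).

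The order of the receptor genes depended on the values used. In control libraries *Pdgfrb* was at 0.629 and 0.664 times the CPM of *Pdgfra*. In ca-*Acvr1(A11)* libraries it was above *Pdgfra* as deposited, at 1.41 and 1.32 times, but below it with whole reads, at 0.862 and 0.889 times. The ratio of *Pdgfrb* to *Pdgfra* was higher than in control either way, with log2 differences of 1.08 and 0.44 (exact permutation p = 0.33 for each).

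**Figure D3:**
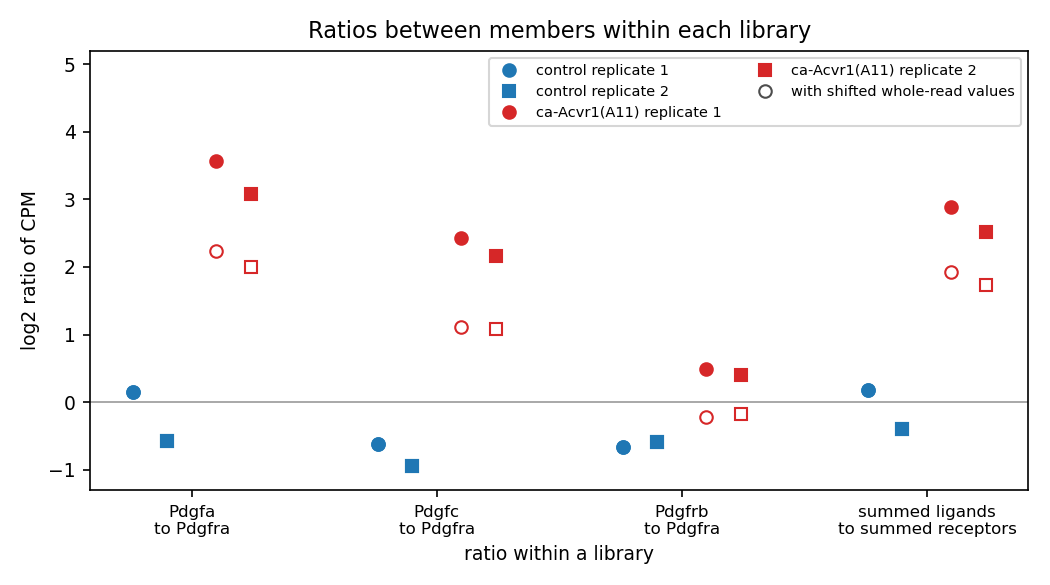
Log2 ratios of CPM (y axis) between members within each library (x axis), blue for control and red for ca-*Acvr1(A11)*, circles for replicate 1 and squares for replicate 2, filled for deposited and open for shifted whole-read values. In the 4 ratios plotted, all ca-*Acvr1(A11)* points lie above the control points, and the whole-read values bring the difference in *Pdgfa* to *Pdgfra* from 3.54 to 2.34 and in *Pdgfrb* to *Pdgfra* from 1.08 to 0.44.

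Markers of mesenchyme and epithelium, the cell types best known for these genes, moved with the groups. In bulk tissue, fewer cells of a type and less RNA per cell cannot be told apart. All 21 tested markers of cranial neural crest mesenchyme, the cells that carry PDGFRα, had fitted changes below 0. Of them, 13 were called lower and 0 higher, beside 0.594% and 0.305% of all genes tested. Their median log2 fold change was −0.83 beside 0.03 over all genes. Their summed level was 2265 to 2801 CPM in control and 1398 to 1474 CPM in ca-*Acvr1(A11)* libraries. None of the listed mesenchyme markers was at 0 in a library. The number called lower was 12 with shifted whole-read values, 10 with a pseudocount of 0.1 CPM and 7 in DESeq2. Of 15 tested epithelial markers, 13 had fitted changes above 0, with a median of 0.52. In limma 3 were called higher (the adhesion genes *Cdh1* and *Epcam*, and *Perp*) and 0 lower, while 0 were called in DESeq2. The share of all genes called higher was 0.305%. The epithelial sum was 289 to 315 CPM in control and 452 to 492 CPM in ca-*Acvr1(A11)* libraries.

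Set against the summed mesenchyme markers of the same library, *Pdgfra* was at 3.77% and 4.06% in control libraries. In ca-*Acvr1(A11)* libraries it was at 0.945% and 1.21% as deposited and at 2.38% and 2.57% with whole reads, below control by 1.87 and 0.66 on the log2 scale (exact permutation p = 0.33 for each). The fitted change of *Pdgfra* was more negative than that of each of the 21 mesenchyme markers on both sets of values, although with whole reads its −1.45 lay next to the lowest marker at −1.42. *Pdgfrb* was at 2.37% and 2.69% of the mesenchyme sum in control, and at 1.33% and 1.61% as deposited or 2.05% and 2.29% with whole reads in ca-*Acvr1(A11)* libraries, a log2 difference of −0.79 or −0.22 (exact permutation p = 0.33 for each). With whole reads, 6 of the 21 mesenchyme markers fell by more than *Pdgfrb*, and as deposited 0 did.

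Pericytes and mural cells are the other known source of *Pdgfrb*. Of 10 tested markers, 1 was called lower and 0 higher, beside 0.594% and 0.305% of all genes tested. The fitted changes, 5 above and 5 below 0, had a range of −2.01 to 1.10 and a median of −0.03. The listed markers summed to 111 to 138 CPM in control and 106 to 114 CPM in ca-*Acvr1(A11)* libraries. Most of this sum came from *Mcam* and *Notch3*, named after their values were seen. *Mcam* was at 54.7 and 46.6 CPM in controls, against 44.4 and 50.1 CPM in mutants. *Notch3* was at 63.9 and 40.4 against 42.3 and 40.7 CPM. The other tested markers were at 7.10 CPM or less, so the sum and ratios to it say little about them. *Cspg4* and *Ndufa4l2* were at 0 in 2 libraries each and *Cnn1* in 1, and *Higd1b* and *Myh11* have no row. The 1 called lower was *Vtn* (vitronectin), at 5.62 and 7.10 CPM in controls, against 1.25 and 0.468 CPM in mutants. This call was lost with a pseudocount of 0.1 CPM and in DESeq2. *Pdgfrb* was at 38.7% and 68.0% of the pericyte and mural sum in controls, and in mutants at 17.5% and 20.8% as deposited or 27.0% and 29.6% with whole reads, a log2 difference of −1.42 or −0.86 (exact permutation p = 0.33 for each). *Pdgfa* was at 30.0% and 26.3% of the summed epithelial markers in control and 31.9% and 33.5% in ca-*Acvr1(A11)* libraries, a log2 difference of 0.22 (exact permutation p = 0.33), beside 0.86 in CPM. Against the summed neural markers it was at 6.04% and 4.78% in controls and 8.34% and 7.62% in mutants, a log2 difference of 0.57 (exact permutation p = 0.33). *Pdgfc* was at 17.7% and 20.4% of the summed epithelial markers in control and 14.5% and 17.8% in ca-*Acvr1(A11)* libraries, and these groups overlap. For *Pdgfb*, 13 endothelial markers were tested and 0 were called, with 3.80% and 4.35% of their sum in control and 3.94% and 3.93% in ca-*Acvr1(A11)* libraries. Neural markers summed to 1565 to 1587 CPM in control and 1881 to 1990 CPM in ca-*Acvr1(A11)* libraries (0 of 14 called). Erythroid markers summed to 7051 to 8503 and 6724 to 7229 CPM (0 of 8 called). Of all genes tested, 0.899% were called in limma. At that share, 0 calls in the short endothelial, neural and erythroid lists is not a result about these cell types. Macrophage markers summed to 48.5 to 54.2 and 88.4 to 120 CPM. The share of all genes called higher in limma was 0.305%, and of 10 macrophage markers 2 were called higher (*Cx3cr1* and *Mrc1*), 1 at a pseudocount of 0.1 CPM and 0 in DESeq2. These markers, outside the rule for named genes, were named after their values were seen. The part of these cell types in the changes of the PDGF genes was not tested.

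**Figure D4:**
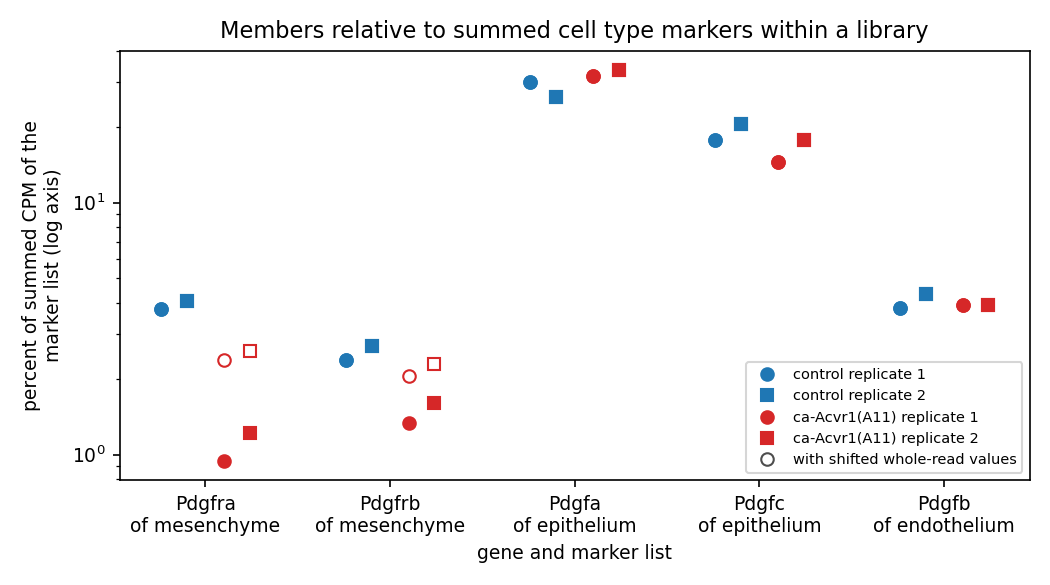
CPM of a member as a percent of the summed CPM of a marker list in the same library (y axis, log scale; member and list on the x axis), blue for control and red for ca-*Acvr1(A11)*, circles for replicate 1 and squares for replicate 2, filled for deposited and open for shifted whole-read values. *Pdgfra* lies below control at 0.945% to 1.21% or, with whole reads, 2.38% to 2.57% of the mesenchyme sum, and *Pdgfrb* with whole reads comes closer to control, at 2.05% and 2.29% beside 2.37% and 2.69%.

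**Figure D5:**
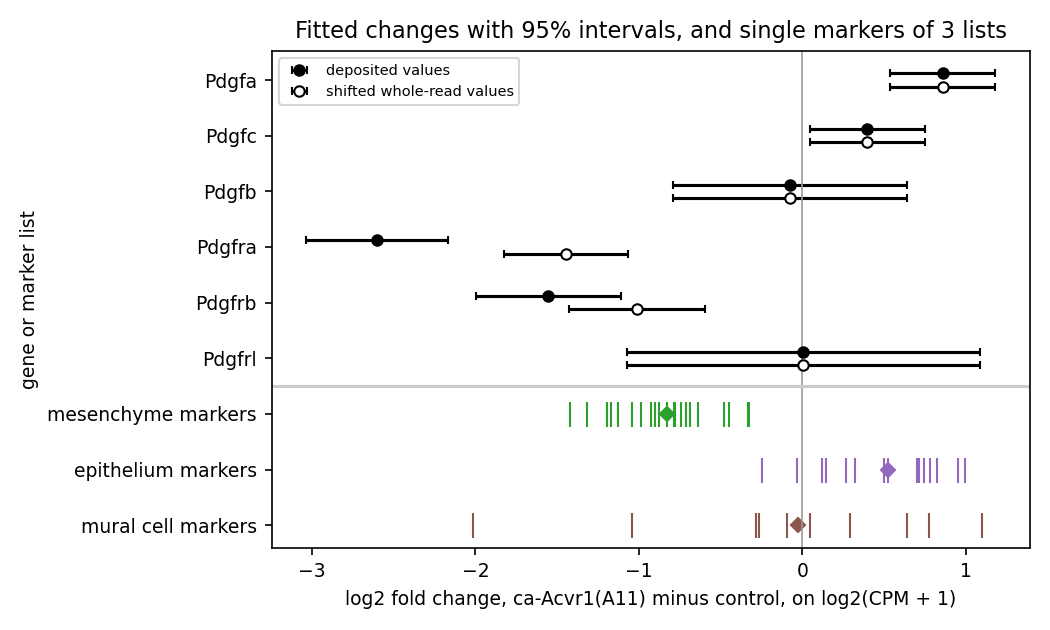
Log2 fold changes on log2(CPM + 1) (x axis, ca-*Acvr1(A11)* minus control) of the 6 members with 95% intervals from limma, filled for deposited and open for shifted whole-read values, above the single markers (ticks) and medians (diamonds) of 3 cell type lists. *Pdgfra* at −2.60 or −1.45 lies past the mesenchyme markers, which run from −1.42 to −0.33, and *Pdgfa* at 0.86 within the range of the epithelial markers, −0.25 to 0.99.

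Genes that act around and below the receptors were taken as lists, and 0 were called, beside 0.899% of all genes tested in limma (112 of 12462). At that share, 0 calls in lists this short is not a result about these genes. Of 47 genes of PDGF signal transduction (PI3K, AKT, PLCγ, SRC and RAS/MAPK components, adaptors and phosphatases), all 47 were tested, and 0 were called by limma, edgeR or DESeq2. Without adjustment 2 were higher and 0 lower, beside 5.42% higher and 4.12% lower of all genes tested, and the median log2 fold change was 0.02, with a range of −0.34 to 1.49. Named after their values were seen, the 2 were *Grb7*, an adaptor of receptor tyrosine kinases (1.14 on the log2 scale, with an adjusted p = 0.131 from limma), and *Plcg1*, which encodes PLCγ1 and was at 0 to 2.91 CPM (1.49, adjusted p = 0.292 from limma). Of 11 genes for processing of the ligands and for co-receptors (proprotein convertases, plasminogen activators, neuropilins), 0 were called, with a median of −0.12. Before adjustment 1 was higher (*Sparc*, whose product binds PDGF-B) and 3 lower (*Nrp2*, *Plat* and *Pcsk5*), beside 5.42% higher and 4.12% lower of all genes tested. *Plat*, which encodes tissue plasminogen activator, a protease that activates PDGF-C, was at 47.5 and 58.2 CPM in controls, against 39.4 and 34.6 CPM in mutants (log2 fold change −0.50, adjusted p = 0.364 from limma). Among 12 tested relatives of the receptors and members of the VEGF family, 0 were called with or without adjustment in the main limma fit, and the median was 0.10. With TMM scaling, and in edgeR on shifted whole-read values, 1 was lower without adjustment. The 12 include *Kit* and *Kdr*, named here for their position, after their values had been seen. With *Pdgfra* they form a cluster of receptor tyrosine kinase genes on chromosome 5, where *Kit* starts 376700 bases after the end of *Pdgfra*. *Kit* was at 19.4 and 13.8 CPM in controls, against 17.9 and 15.9 CPM in mutants (log2 fold change 0.04, 95% interval −0.52 to 0.60, adjusted p = 0.983 from limma). *Kdr* was at 54.2 and 48.4 CPM in controls, against 52.3 and 44.5 CPM in mutants (log2 fold change −0.08, 95% interval −0.47 to 0.30, adjusted p = 0.943 from limma). Their groups overlap, unlike those of *Pdgfra*.

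Of 28 symbols listed for immediate early and feedback genes known to respond to PDGF, 21 were tested. *Fos*, *Fosb*, *Fosl1*, *Egr2* and *Egr3* have no row, nor do *Ccn1* and *Ccn2*, the newer symbols of *Cyr61* and *Ctgf*, which were tested. By limma, edgeR or DESeq2, 0 were called, beside 0.899% of all genes tested in limma (112 of 12462). At that share, 0 calls in a list this short is not a result about these genes. Without adjustment 1 was higher (*Junb*, 0.94 on the log2 scale) and 1 lower (*Has2*, which encodes a hyaluronan synthase, −0.53). Of all genes tested, 5.42% were higher and 4.12% lower without adjustment. The median log2 fold change of the list was 0.10 as deposited and 0.08 with whole reads. Some ca-*Acvr1(A11)* values of *Spry1*, *Spry2* and *Spry4*, feedback inhibitors of receptor tyrosine kinases in this list, were also not whole reads. The 21 genes summed to 1139 to 1258 CPM in controls, and in mutants to 1265 to 1330 CPM as deposited and 1258 to 1316 CPM with shifted whole-read values. The log2 fold change of *Spry4* was 0.44 as deposited and 0.01 with whole reads.

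The genes whose profile over the 4 libraries lay nearest to that of a member were found by the Euclidean distance of log2(CPM + 1), centred on its mean, among 8353 genes with a mean of at least 10 CPM. For *Pdgfa* they included *Sp8* (distance 0.064), which encodes a transcription factor of facial epithelium, and *Cdc42bpg* (0.078), on both sets of values. *Sp8* was at 31.2 and 26.2 CPM in controls, against 55.2 and 52.9 CPM in mutants. For *Pdgfra* as deposited the nearest were *Slc2a1* (0.594), all of whose own values are not whole reads, *Col8a2* (0.736) and *Rspo2* (0.778). With whole reads they were the mesenchymal transcription factor genes *Prrx2* (0.074) and *Snai2* (0.140), followed by *Bnc2* (0.247). *Prrx2* was at 58.8 and 76.8 CPM in controls, against 23.7 and 25.3 CPM in mutants, and *Snai2* at 49.6 and 69.3 and at 21.2 and 24.8 CPM. For *Pdgfrb* they were *Prrx2* (0.227), *Tgfbi* (0.237) and *Snai2* (0.249) as deposited, and *Cdo1* (0.092), *Foxp2* (0.104) and *Col13a1* (0.129) with whole reads. These distances are a description over 4 libraries and carry no test.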

How the data were processed

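The authors deposited 1 table of CPM values for 4 libraries. Per the labels, reads came from the QuantSeq 3′ kit, and the submitters' processing notes name mm10, STAR, featureCounts 1.6.4 and DESeq2 without their roles. Groups came from the sample titles. The value of 1 read was found from the spacing of low values in each library (tolerance 0.02 reads), and reads were recovered from it. The main test was limma 3.58.1 (R 4.3.3) on log2(CPM + 1), mean above 1 CPM, a trended prior variance, and p-values adjusted by Benjamini-Hochberg (threshold 0.05) over 12462 genes. Fold changes on this scale understate changes of low genes. Alternatives were a pseudocount of 0.1 CPM, no filter, TMM scaling, shifted whole-read values, edgeR 4.0.16 on recovered reads, edgeR and DESeq2 1.42.0 on shifted whole-read values, a replicate block and leaving out each library. Combinations of these with whole-read values, and upper-quartile scaling, were chosen after seeing the data. The fits were tested on simulated data. Members and gene lists were chosen with earlier results of these data known. Named genes were the members, the genes called in pathway lists (there were 0) and the 3 nearest profiles, of which 1 is not reported here. Coordinates are from GENCODE (GRCm38, the build of mm10). Unused columns of values numbered 0.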

Additional observations from a re-analysis of the deposited data

How the results depend on the processing

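The numbers of genes called (38 higher, 74 lower) were 42 and 107 in edgeR on recovered reads. They moved to 7 and 26 in DESeq2 on whole-read values, and to 97 and 132 with a replicate block (98 and 123 with whole reads). Leaving out each library gave 32 to 241 higher and 56 to 221 lower as deposited, and 31 to 242 and 50 to 214 with whole reads, the highest without control replicate 1 (without control replicate 2, 61 and 60 were higher). The replicate numbers were not shown to pair the libraries (the deviations of the 2 pairs correlated at 0.067), and the block changed no call of a PDGF gene. Whole-read values moved the log2 differences of the ratios to 2.34 for *Pdgfa* to *Pdgfra*, 0.44 for *Pdgfrb* to *Pdgfra* and 1.95 for summed ligands to receptors. *Pdgfa* and *Pdgfra* kept direction under all 19 alternatives, *Pdgfra* from −2.81 to −1.24, and kept their call wherever both groups held 2 libraries. With a library left out or a replicate block, limma took the variance wholly from the trend over all genes. Calls in those fits therefore do not measure the spread between replicates. *Pdgfc* kept its direction, with an adjusted p of 0.347 or more (the lowest from limma with a replicate block). *Pdgfrb* lost its call in DESeq2 on whole-read values (−1.08, adjusted p = 0.0938). On whole-read values, leaving out each library gave −1.25 to −0.77 for *Pdgfrb*, the weakest without control replicate 2. Neither *Pdgfb* nor *Pdgfrl* was called, and their signs turned. *Pdgfb* ran from −0.26 to 0.11 with each library left out, and *Pdgfrl* from −0.57 to 0.58 (−0.51 without control replicate 1). *Pdgfrl* was at −0.011 with a pseudocount of 0.1 CPM, −0.013 with TMM scaling (also with whole reads) and −0.018 with upper-quartile scaling. The cause of these shifts was not tested. *Pdgfb* and *Pdgfrl* rest on 20 reads or fewer per library. With 2 libraries a group, intervals of limma rest largely on variance shared over all genes. They do not cover the choice between deposited and whole-read values.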
